A study of Arabidopsis thaliana with 4 samples.

Results

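The uridylation of mRNA tails in urt1 seedlings was set against that in wild type (WT) seedlings of Arabidopsis thaliana, using the 2 libraries of these genotypes out of the 4 libraries of the study. The urt1 library came from plants with the insertion allele urt1-1 (Salk_087647C), and the WT library from ecotype Col0. Both were seedlings of 2 weeks grown on soil under 16 h of light and 8 h of darkness. The remaining libraries, the double mutant urt1-1 xrn4-3 and the single mutant xrn4-3 (SALK_014209), served as a second pair that differs by urt1 and shares no library with the first. All reads labelled urt1 or WT in the deposited read table were used: 43391 reads on 5489 genes in urt1 and 10304 reads on 2702 genes in WT. Each genotype has 1 library, so no difference has a replicate check, no p-value is given and the spread between plants is unknown. Intervals are 95% intervals and cover counting error only; since reads carry no molecular identifiers and repeats are frequent, they are too narrow.

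URT1 is a terminal uridylyltransferase, an enzyme that adds uridines to the 3′ end of mRNAs whose poly(A) tail has been shortened. HESO1 is a related enzyme best known for uridylating small RNAs that lack a protective methyl group. In plants, a U extension on an oligo(A) tail is known to mark mRNAs in decay and to allow poly(A) binding protein to stay on the trimmed end. TAIL-seq sequences from the very 3′ end of each RNA, so that the A tract and any nucleotides added to it are read. The table holds A tracts of 4 to 30 nt, so the tails compared are short ones, and the share of reads on a gene describes short-tailed ends rather than the amount of its mRNA. A tail was called uridylated where its extension held U without G or C, which was the same set as the table's own U category.

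The tails that show which extensions were frequent in each library are printed with the A tract in lower case and the added U in capitals. The first 3 were the most frequent uridylated tails in urt1, and the next 3 the most frequent in WT.

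4 A and 1 U: aaaaU

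14 A and 1 U: aaaaaaaaaaaaaaU

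15 A and 1 U: aaaaaaaaaaaaaaaU

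13 A and 2 U: aaaaaaaaaaaaaUU

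14 A and 2 U: aaaaaaaaaaaaaaUU

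12 A and 2 U: aaaaaaaaaaaaUU

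The tail of 4 A and 1 U was read 157 times in urt1 (0.362% of tails) and 45 times in WT (0.437%), shares that lie close together. The tail of 13 A and 2 U was read 39 times in urt1 (0.0899%) and 168 times in WT (1.63%). That of 12 A and 2 U was read 59 times in urt1 and 151 times in WT, although the urt1 library is the larger one. The commonest tail was the same in both, an unmodified tract of 16 A, with 3523 reads in urt1 (8.12%) and 797 in WT (7.73%).

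Libraries were alike in tissue signs and unequal in depth. Photosystem and antenna transcripts made up 11.5% of urt1 reads and 10.1% of WT reads, and all 40 listed members were read, while seed storage, root hair and floral identity lists had 0 reads in both. No read of URT1 (AT2G45620) or HESO1 (AT2G39740) was present, which allows up to 69.1 CPM, a share of the table's reads, in urt1 and 291 CPM in WT, so the genotype could not be checked through these transcripts. Different combinations of gene, A length and extension made up 47.1% of reads in urt1 and 64.2% in WT. Read names showed that every library was read in both lanes of 1 flow cell, and values per lane stand beside the main results. Lanes hold reads of the same library, so they are not replicates and say nothing about the spread between libraries or plants.

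Uridylated tails were fewer in urt1, by a larger factor for extensions of 2 or more U than for those with 1 U. Uridylated tails were 6.87% of urt1 tails (2983 of 43391) and 31.7% of WT tails (3268 of 10304), a difference of -24.8 percentage points (-25.8 to -23.9). The 2 lanes gave 6.82% and 6.93% in urt1, against 31.7% in each lane of WT. Tails with 1 U were 4.77% in urt1 and 10.4% in WT, which is 2.18-fold lower in urt1. Tails with 2 or more U were 2.11% in urt1 and 21.3% in WT, which is 10.1-fold lower. Counting identical reads once also merges separate molecules of a gene that share the same tail. With identical reads counted once, the uridylated share was 10.4% in urt1 and 28.4% in WT, tails with 1 U were 7.51% and 11.1% (1.48-fold lower), and tails with 2 or more U were 2.91% and 17.3% (5.94-fold lower).

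The loss was uneven between the strings added. A lone U was found on 3.27% of urt1 tails and 7.70% of WT tails (2.35-fold lower in urt1). UU was found on 1.22% of urt1 tails and 13.9% of WT tails (11.4-fold lower), and UUU on 0.214% and 4.81% (22.5-fold lower, the largest of the 8 commonest strings). UUUU stood at 0.113% in urt1 and 0.990% in WT, 8.77-fold lower. Extensions holding both U and A were 2.01% of urt1 tails and 4.14% of WT tails (2.06-fold lower, difference -2.13 points, -2.55 to -1.74). Written as in the table, AU was on 1.21% of urt1 tails and 2.32% of WT tails, 1.92-fold lower. For AAU the shares were 0.251% in urt1 and 0.359% in WT, and the interval of the difference included 0 (-0.250 to 0.00332). Every U extension in both libraries was written ending in U; the direction in which the table writes extensions is not stated, so the position of the A is not read further.

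In the second pair the order of U, UU and UUU was the same and their folds were smaller. Folds of strings holding U and A went both ways. AU was 1.33-fold lower in the second pair against 1.92-fold in the first, AAU 1.77-fold against 1.43-fold, and UAU 4.64-fold against 2.03-fold. A lone U was on 4.44% of urt1 xrn4 tails and 6.20% of xrn4 tails (1.40-fold lower in the double mutant), UU on 3.43% and 14.4% (4.21-fold), and UUU on 1.14% and 7.31% (6.43-fold). Altogether 13.4% of urt1 xrn4 tails and 40.2% of xrn4 tails were uridylated, a difference of -26.8 points. The difference between the 2 pairs was not tested.

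Extensions with G gave no single direction, and those with C were lower in urt1 among tails without U. G extensions were on 5.94% of urt1 tails and 4.93% of WT tails. Taken among tails without U, which are more numerous in urt1, the same counts gave 6.38% in urt1 and 7.22% in WT (-0.843 points, -1.51 to -0.212). With identical reads counted once that second comparison turned, to 8.97% in urt1 and 7.98% in WT. C extensions were 2.05% of urt1 tails and 2.41% of WT tails, and 3.62% and 3.51% with identical reads counted once.

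The share of uridylated tails was lower in urt1 at each of the 27 A lengths from 4 to 30 nt, and the gap was widest in the middle of the short range. In tails of 10 to 13 A, 9.85% were uridylated in urt1 (787 of 7986) and 63.9% in WT (1127 of 1763), 6.49-fold lower in urt1. In tails of 14 to 19 A the shares were 4.98% in urt1 and 28.97% in WT (5.82-fold), and in tails of 20 to 25 A they were 2.21% and 9.35% (4.24-fold). At the ends of the range the gap narrowed. Tails of 4 to 9 A had 12.8% in urt1 and 37.9% in WT (2.96-fold), and those of 26 to 30 A had 2.68% and 7.27% (2.71-fold). The smallest fold was at 4 A, with 17.8% in urt1 (403 of 2260) and 28.1% in WT (141 of 502), 1.58-fold lower. The largest was at 18 A, with 66 of 2622 tails in urt1 and 107 of 550 in WT, 7.73-fold lower. The interval of the difference lay below 0 at 25 lengths and included 0 at 28 and 30 A. Weighting each length as in WT changed the overall shares little, to 6.59% in urt1 against 31.7% in WT.

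**Figure D1:**
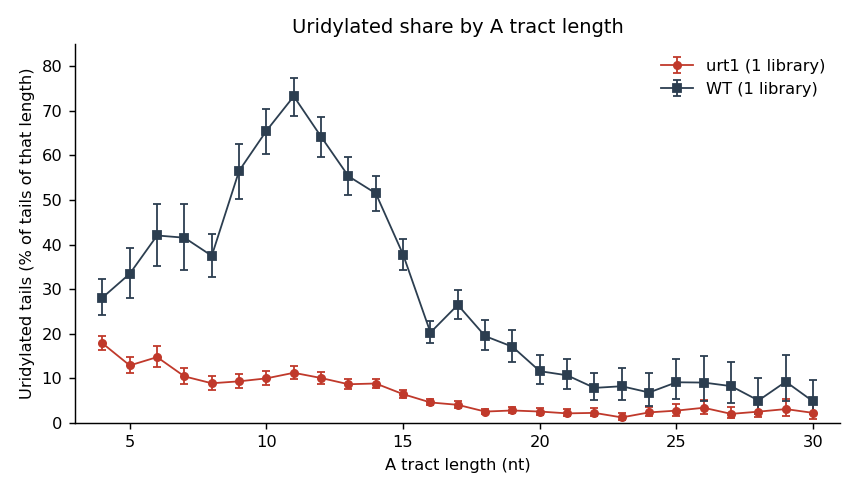
Uridylated tails as a percentage of all tails of each A tract length (nt), in urt1 (circles) and WT (squares), 1 library each, with Clopper-Pearson 95% intervals. WT peaks at 73.3% at 11 A, where urt1 has 11.2%, and the lines lie closest together from 20 A on.

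The number of added U followed A length differently in the 2 genotypes. Among tails of 10 to 13 A, 3.08% carried 2 or more U in urt1 and 48.4% in WT, 15.7-fold lower in urt1, whereas 6.77% carried 1 U in urt1 and 15.5% in WT, 2.29-fold lower. Among tails of 14 to 19 A the folds were 15.02 for 2 or more U (1.15% in urt1, 17.3% in WT) and 3.05 for 1 U (3.82% and 11.6%). In the shortest class, 4 to 9 A, tails with 1 U came nearest to WT, at 7.74% in urt1 and 10.6% in WT (1.37-fold), while those with 2 or more U were 5.08% and 27.3% (5.38-fold). At 5 A, picked because the shares with 1 U lay closest there, they were 7.43% in urt1 (101 of 1360) and 7.39% in WT (21 of 284). The neighbouring lengths were lower in urt1, with 9.82% against 11.95% at 4 A and 9.01% against 9.66% at 6 A. In the second pair the single-U tails of 10 to 13 A were 11.7% in urt1 xrn4 and 11.7% in xrn4 (difference 0.0200 points, -1.72 to 1.67), and tails of that class with 2 or more U were 11.2% and 57.6%. Tails that kept 3 or more U in urt1 were short, with a mean A tract of 9.38 nt in urt1 against 11.3 nt in WT.

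**Figure D2:**
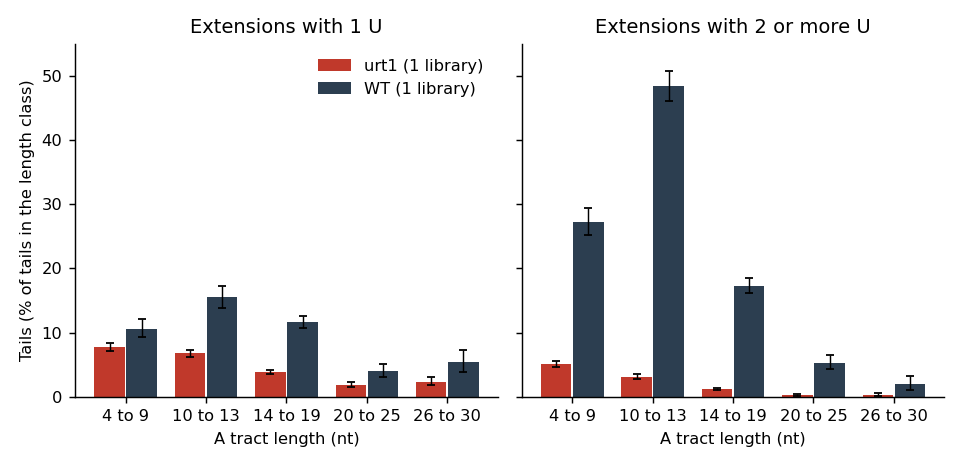
Tails with 1 U (left) and with 2 or more U (right) as a percentage of tails in 5 classes of A tract length (nt), urt1 left of WT in each class, 1 library each, with Clopper-Pearson 95% intervals. Bars for 2 or more U reach 48.4% in WT at 10 to 13 A against 3.08% in urt1, while bars for 1 U differ by 1.37-fold at 4 to 9 A.

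At gene level, 58 genes reached 20 tails in both libraries. The uridylated share was lower in urt1 for 49 of them, higher for 8 and equal for 1, with a median of 6.43% in urt1 and 17.8% in WT. It was at least 2-fold lower for 38 genes (65.5%) and at least 2-fold higher for 4 (6.9%). For 33 genes (56.9%) the whole interval of the difference was below 0, and for 0 genes above it. With at least 20 tails per lane, the share was lower for 21 of 22 genes in lane 1 and 23 of 25 in lane 2. The gene counts did not hold with identical reads counted once: 23 genes then had 20 tails in each, 10 were lower and 12 higher in urt1, 3 at least 2-fold lower and 2 at least 2-fold higher, with the whole interval below 0 for 3 and above 0 for 2, and medians of 25% in both. A gene can show at most 27 different unmodified tails in this table, so that counting reaches its limit sooner in the deeper urt1 library. Repeated copies of 1 molecule can also inflate the counts over every read, and what changed the gene counts was not tested. Split by the number of U, the share of tails with 2 or more U was lower in urt1 for 43 genes and higher for 8, and that of tails with 1 U was lower for 37 and higher for 20.

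**Figure D3:**
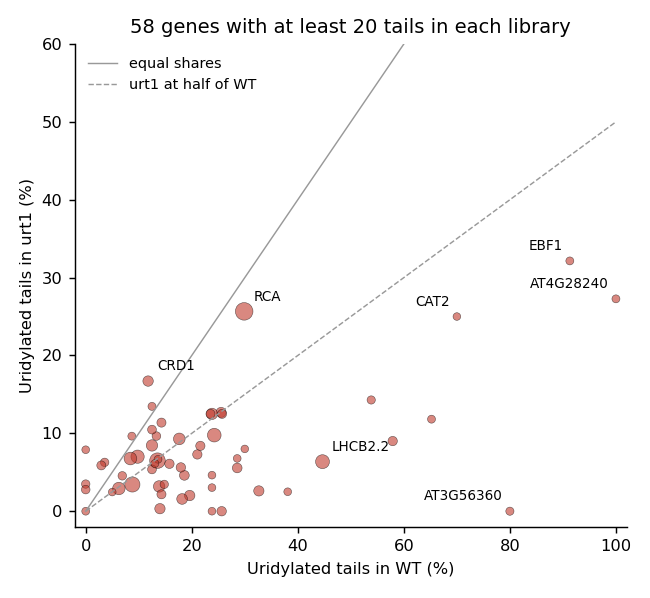
Uridylated tails (%) in urt1 (vertical) against WT (horizontal) for the 58 genes that reached 20 tails in both libraries; point area grows with the number of WT tails, the solid line marks equal shares and the dashed line a 2-fold lower share in urt1. EBF1 is the highest gene in urt1 at 32.1%, and 7 genes pass 50% in WT.

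The 7 genes with more than 50% uridylated tails in WT had the 7 largest differences. That follows largely from choosing them by their WT share, since the highest share of any tested gene in urt1 was 32.1%. AT3G56360, which encodes an uncharacterized protein, had 0 of 23 uridylated tails in urt1 (interval 0 to 14.8%) and 20 of 25 in WT (59.3 to 93.2%). Identical WT reads were frequent there, with 8 different tails in WT, 5 of them uridylated, and 5 in urt1. AT4G28240, of the wound-responsive protein family, had 6 of 22 in urt1 and 23 of 23 in WT. EBF1 (AT2G25490), an F-box protein that targets the ethylene regulator EIN3 for degradation, had 9 of 28 in urt1 and 21 of 23 in WT. In EBF1 the kind of extension differed as well: 7 urt1 tails held 1 U and 2 held more, against 0 with 1 U and 21 with more in WT. CAT2 (AT4G35090), the peroxisomal catalase of leaves, showed the same contrast, with 15 tails of 1 U and 0 of 2 or more among 60 in urt1, against 2 and 12 among 20 in WT. With identical reads counted once, AT4G28240 had 2 of 13 uridylated in urt1 and 11 of 11 in WT. EBF1 then had 6 of 18 and 6 of 8, and CAT2 8 of 24 and 7 of 12.

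FBA1 (AT2G21330), a plastid aldolase of the Calvin cycle, had 9.0% in urt1 (20 of 222) and 57.9% in WT (22 of 38), a difference of -48.9 points (-63.5 to -32.6). TIP2 (AT3G26520), a water channel of the vacuolar membrane, had 26 of 220 in urt1 and 15 of 23 in WT. PDH-E1 ALPHA (AT1G01090), a subunit of plastid pyruvate dehydrogenase, had 10 of 70 in urt1 and 14 of 26 in WT. With identical reads counted once, PDH-E1 ALPHA had 7 of 24 in urt1 and 5 of 14 in WT, a small difference. FBA1 then had 12 of 49 and 12 of 20, and TIP2 12 of 49 and 8 of 15. The WT values of these 3 genes stand above the median of 17.8%, and their urt1 values stand above 6.43%. LHCB2.2 (AT2G05070), an antenna protein of photosystem II, differed in the kind of extension too: 22 tails of 393 held 1 U and 3 held more in urt1, against 28 and 18 of 103 in WT. PSAF (AT1G31330), a subunit of photosystem I, had 1 of 40 in urt1 and 8 of 21 in WT, and emb2386 (AT1G02780), a cytosolic ribosomal protein of the L19e family, had 3 of 115 in urt1 and 16 of 49 in WT.

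The share was higher in urt1 for 8 genes, with no interval wholly above 0 when every read was counted. CRD1 (AT3G56940), a cyclase subunit of chlorophyll synthesis, had 59 of 353 uridylated tails in urt1 and 6 of 51 in WT, a difference of 4.9 points whose interval included 0 (-7.2 to 12.5). With identical reads counted once it had 32 of 67 in urt1 (47.8%) and 5 of 33 in WT (15.2%). Its urt1 tails held 2 or more U in 38 reads and 1 U in 21, against 0 and 6 in WT. SHM4 (AT4G13930), a serine hydroxymethyltransferase, had 9 of 114 in urt1 and 0 of 21 in WT. The others with the largest increases were AT3G49910, DELTA-TIP and LAP2. AT3G49910, annotated as an SH3-like translation protein, had 9 of 258 in urt1 and 0 of 28 in WT. DELTA-TIP (AT3G16240), a vacuolar water channel, had 8 of 136 and 1 of 34, and LAP2 (AT4G30920), an aminopeptidase, 1 of 36 and 0 of 30. All intervals of these increases included 0 with every read counted. RCA (AT2G39730), the Rubisco activase, differed by -4.2 points (-12.6 to 3.8), with 87 of 339 (25.7%) in urt1 and 52 of 174 (29.9%) in WT. Its tails with 2 or more U were 13.6% in urt1 and 16.7% in WT, and its tails with 1 U 12.1% and 13.2%.

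Grouped by function, every list with at least 100 reads in each library had a lower pooled share in urt1. Ribosomal protein transcripts outside the plastid list (200 of 320 loci read) had 3.35% in urt1 (175 of 5231) and 19.7% in WT (176 of 893), and 9 of the 11 members tested were at least 2-fold lower. This list is chosen by the words of the annotation, so ribosomal proteins annotated under another name are missed. It holds mostly cytosolic but also some organellar proteins, among them 32 organelle-genome loci with 0 reads. Without these and 7 nuclear genes of organellar ribosomes it had 3.32% in urt1 and 19.9% in WT. Nuclear genes of plastid ribosomal proteins had 3.96% in urt1 (25 of 631) and 11.8% in WT (15 of 127). Photosystem and antenna transcripts had 7.51% in urt1 and 20.1% in WT, with 9 of 18 members at least 2-fold lower, against 65.5% of all genes tested. Calvin cycle transcripts had 9.54% in urt1 and 21.3% in WT (4 of 5 members), and translation elongation factors 7.65% and 21.4% (both members tested). Counting identical reads once narrowed the gaps, but that counting reaches its limit sooner in the deeper urt1 library, as above. Photosystem transcripts then had 18.8% in urt1 and 22.9% in WT, and Calvin cycle transcripts 24.6% and 27.9%. Plastid ribosomal proteins had 7.31% and 11.4%, elongation factors 20.97% and 32.3%, and the other ribosomal proteins 8.2% and 22.0%. Among lists below 100 reads in WT, photorespiration transcripts had 18 of 175 in urt1 and 8 of 58 in WT. Chlorophyll synthesis transcripts had 67 of 460 in urt1 (14.6%) and 19 of 81 in WT (23.5%), which turned to 30.4% in urt1 and 23.6% in WT with identical reads counted once, and aquaporins 49 of 528 and 23 of 90. Transcripts of mRNA decay and poly(A) binding proteins had 28 reads in urt1 and 8 in WT, too few to compare.

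In the second pair, 37 of 47 genes that reached 20 tails had the lower share in urt1 xrn4, with a median of 9.43% there and 30.5% in xrn4. Of the 34 genes tested in both pairs, 29 were lower in urt1, 26 in urt1 xrn4 and 22 in both. Whether the same genes were lower in both pairs more often than these counts alone give was not tested. AT3G56360 had 9 of 27 in urt1 xrn4 and 30 of 30 in xrn4, and AT4G28240 had 10 of 26 and 25 of 27. FBA1 and TIP2 did not show the lower share there. FBA1 had 19 of 134 in urt1 xrn4 and 5 of 45 in xrn4, and TIP2 had 43 of 163 and 6 of 25. EBF1 had 3 tails in xrn4 and CAT2 had 6, too few to compare. RCA had 22 of 118 in urt1 xrn4 and 54 of 174 in xrn4, and CRD1 had 41 of 139 and 19 of 30, both lower in the double mutant.

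A tracts were slightly shorter in urt1. The mean over all tails was 14.9 nt in urt1 (SD over reads 5.99) and 15.5 nt in WT (SD 6.21), a difference of -0.55 nt (-0.68 to -0.42). With the added nucleotides counted, the mean was 15.2 nt in urt1 and 16.3 nt in WT. Unmodified tails alone had a mean of 15.4 nt in urt1 and 17.2 nt in WT. That subset leaves out uridylated tails, which are 63.9% of WT tails of 10 to 13 A and 9.85% of such tails in urt1, so its mean depends on the difference in uridylation and is no separate measure of A length. Of unmodified tails, 18.0% had 10 to 13 A in urt1 and 8.66% in WT. Uridylated tails had a mean of 11.5 nt in urt1 and 12.9 nt in WT. In the second pair the A tract over all tails went the other way, with 14.3 nt in urt1 xrn4 and 13.8 nt in xrn4, while the length with added nucleotides was 14.7 nt in urt1 xrn4 and 15.01 nt in xrn4 and that of unmodified tails 15.2 nt and 15.9 nt.

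Among the 58 genes the mean A tract was at least 1 nt shorter in urt1 for 26 (44.8%) and at least 1 nt longer for 3 (5.17%). Over unmodified tails, a subset that uridylation itself sets as above, it was at least 1 nt shorter for 29 of 40 genes (72.5%) and longer for 1 (2.5%). Of the 18 photosystem and antenna genes, 10 were at least 1 nt shorter and 0 longer; of the 11 ribosomal protein genes outside the plastid list, 5 were shorter and 1 longer. Among genes that reached 30 tails in both libraries, ENODL2 (AT4G27520), an early nodulin-like protein, had the largest decrease. Its mean was 15.2 nt in urt1 (149 tails) and 19.3 nt in WT (32 tails), a difference of -4.14 nt with a standard error over reads of 0.84. CRD1 had 16.7 nt in urt1 and 20.02 nt in WT (-3.33 ± 0.99, SE), although its uridylated share was not lower. AT2G45180, of the lipid-transfer protein family, had 15.9 nt in urt1 and 18.6 nt in WT. AT3G60245, a ribosomal protein, and LAP2 each differed by -2.36 nt. Longer tracts in urt1 were found for GAPC2 (AT1G13440), a cytosolic glyceraldehyde-3-phosphate dehydrogenase, with 16.4 nt in urt1 and 14.5 nt in WT (1.95 ± 1.04, SE). emb2386 had 17.2 nt in urt1 and 16.1 nt in WT over all tails, but 17.3 nt and 18.5 nt over unmodified tails. In the second pair, 13 of 47 genes were at least 1 nt shorter in urt1 xrn4 and 15 at least 1 nt longer.

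**Figure D4:**
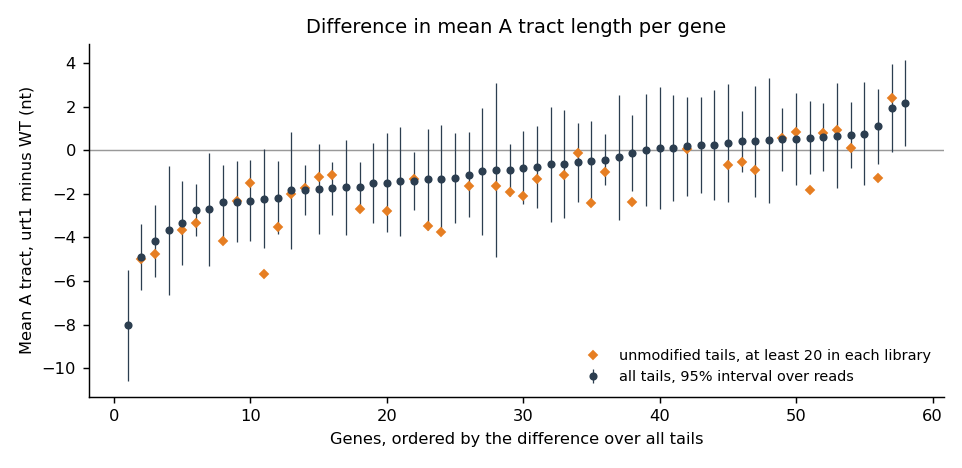
Difference in mean A tract length, urt1 minus WT (nt), for the 58 genes that reached 20 tails in both libraries, ordered by the difference; circles show all tails with 95% intervals over reads, diamonds the 40 genes with 20 unmodified tails in each. Most values lie below 0, with a median of -0.84 nt over all tails; the median of -1.64 nt over unmodified tails depends on which tails were uridylated.

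Shares of reads per gene differed in both directions, and their split depended on the scaling and on depth. Of 440 genes whose reads in urt1 and WT together came to 20 or more, 124 (28.2%) had a share at least 2-fold higher in urt1 and 55 (12.5%) at least 2-fold lower, with a median log2 ratio of 0.31. These are whole seedlings, where fewer cells of a type and less RNA per cell cannot be told apart. Of the higher genes, 83 were at least 2-fold higher in each lane, and of the lower genes, 34 were at least 2-fold lower in each lane. TMM scaling, a trimmed mean of ratios, raised all log2 ratios by 0.82 and gave 238 higher and 15 lower genes, and median of ratios scaling lowered them by 0.25 and gave 99 and 77. With identical reads counted once, 20 of 196 genes were higher and 24 lower. The read minimum favours genes with a higher share in the deeper urt1 library: 31 of the genes had 0 reads in WT and 0 genes had 0 in urt1.

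Transcripts of the ribosomal proteins outside the plastid list made up 12.1% of urt1 reads (5231) and 8.67% of WT reads (893). Of 70 members tested, 26 (37.1%) were at least 2-fold higher in urt1 and 4 (5.71%) at least 2-fold lower, against 28.2% and 12.5% of all genes. Among all genes with at least 50 reads, 42 of 152 were higher and 6 lower, and the list was not compared at like depth. The median log2 ratio was 0.67 against 0.31 over all genes. Counting identical reads once left 33 members with a median of -0.04, where that of all genes was -0.27. SAC52 (AT1G14320, L16p/L10e family) was read 255 times in urt1 and 28 times in WT (log2 ratio 1.09, 0.55 to 1.73). PFL (AT1G22780, S13/S18 family) had 113 reads in urt1 and 5 in WT (2.29, 1.16 to 4.07), higher in both lanes. By contrast emb2386 had 115 reads in urt1 and 49 in WT (-0.85, -1.34 to -0.33), lower in both lanes. In the second pair the same list held 12.2% of urt1 xrn4 reads and 9.15% of xrn4 reads. Genes of plastid ribosomal proteins held 1.45% of reads in urt1 and 1.23% in WT, with 1 of 15 members higher (6.67%) and 3 lower (20%).

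Few photosystem and antenna genes passed 2-fold in either direction. Of 34 tested, 3 (8.82%) were at least 2-fold higher in urt1 and 3 at least 2-fold lower, against 28.2% and 12.5% of all genes. The share of all genes called lower depended on depth. Among genes with at least 50 reads, 42 of 152 were higher and 6 lower. The list was not compared at like depth, so its share of lower genes cannot be called small. Its median log2 ratio was 0.16, below that of all genes. The median became -0.08 with median of ratios scaling and 0.98 with TMM. The plastocyanin gene DRT112 (AT1G20340) had 514 reads in urt1 and 92 in WT (0.40), and CAB1 (AT1G29930), whose near-identical neighbours can share its reads, 420 and 68 (0.54). Of 16 Calvin cycle genes, 4 (25%) were higher and 1 (6.25%) lower, a share of higher genes near that of all genes. CP12-1 (AT2G47400), a small regulator of that cycle, stood at 225 reads in urt1 against 3 in WT (3.94, 2.59 to 6.44), of which 41 and 3 were different tails. RCA had 339 reads in urt1 and 174 in WT (-1.11, -1.38 to -0.84), lower in both lanes and also lower in the second pair (118 reads in urt1 xrn4, 174 in xrn4; -1.98). Of 5 photorespiration genes none passed 2-fold; GLDP1 (AT4G33010), the P-protein of glycine decarboxylase, had 52 reads in urt1 and 24 in WT (-0.97). Of 5 aquaporin genes 2 were higher, among them TIP2 with 220 reads in urt1 and 23 in WT (1.16). Of 3 elongation factor genes none passed 2-fold, and of 4 chlorophyll synthesis genes 1 was higher and 1 lower; lists of 3 to 5 genes are too small to set against the shares of all genes.

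**Figure D5:**
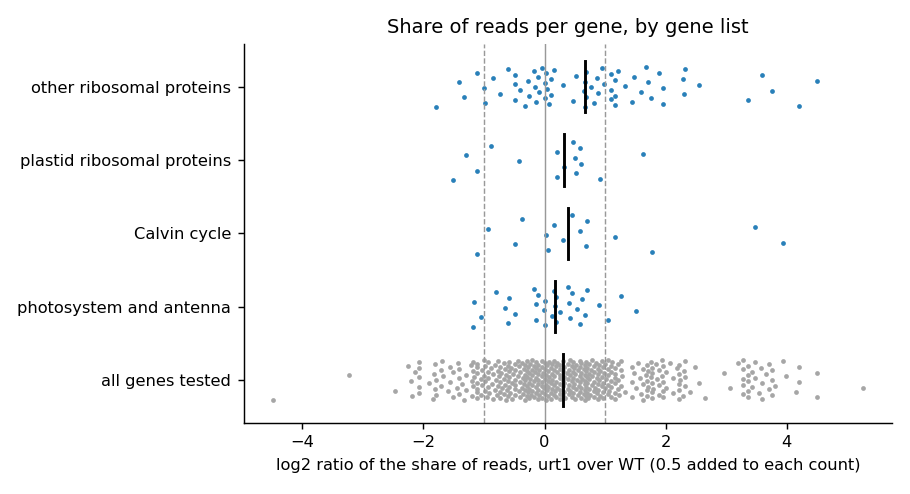
The log2 ratio of the share of reads, urt1 over WT, for each gene with 20 or more reads in urt1 and WT together, by gene list and over all 440 genes; black bars are medians and dashed lines mark 2-fold. Other ribosomal proteins are those outside the plastid list; their median is 0.67 and that of all genes 0.31.

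Outside these lists, the higher genes with the firmest intervals included XTH4 (AT2G06850), a cell wall xyloglucan enzyme, with 75 reads in urt1 and 1 in WT (3.58, 1.63 to 9.48). ARFA1E (AT3G62290), a small GTPase of vesicle traffic, had 251 reads in urt1 and 17 in WT (1.77, 1.10 to 2.61), but a ratio of -0.16 with identical reads counted once. RD22 (AT5G25610), a dehydration-responsive BURP domain protein, had 49 reads in urt1 and 1 in WT (2.97, 0.99 to 8.87), and AT3G62530, an ARM repeat protein, 80 and 0, at least 6.33-fold higher if WT is set to the floor of 3 reads. XTH4 was higher in the second pair too, with 70 reads in urt1 xrn4 and 5 in xrn4 (2.26). Lower in urt1 were LAP2, with 36 reads in urt1 and 30 in WT (-1.82, -2.55 to -1.06), and GSTU20 (AT1G78370), a glutathione transferase, with 46 and 35 (-1.68). LAP2 was lower in the second pair as well, with 27 reads in urt1 xrn4 and 40 in xrn4 (-1.98). EBF1 had 28 reads in urt1 and 23 in WT (-1.80) but 40 in urt1 xrn4 and 3 in xrn4, so the pairs went opposite ways.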

How the data were processed

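Every line of the deposited table is a read with, per the file headers, its genotype, A tract length, added nucleotides, their number, a category and a locus; these other values are lengths in nt. Programs named by the submitters' processing notes are Bowtie2, CASAVA 1.8.2, bedtools 2.17.5 and TopHat2 2.0.9, with build TAIR10; tail measurement and filters are not stated there. UX in the file was read as urt1 xrn4, since 3 genotypes match the labels and 1 is left. Python 3.11.15, pandas 2.3.3, numpy 2.4.6 and scipy 1.17.1 were used. Shares have Clopper-Pearson intervals, their differences Newcombe intervals, and log2 ratios of CPM (0.5 added to each count) exact conditional binomial intervals. RefSeq's annotation gave names for 6457 of 6482 loci. Members, lists and tests were chosen with earlier results of these data known. Named genes were those with the firmest intervals or largest changes, and up to 4 members per list by reads. Ribosomal proteins were listed by annotation; 13 organellar ones were placed by hand after their loci were seen. Gene steps were tested on simulated data. Alternatives were a read or tail minimum, scalings, identical reads counted once, and lanes.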

Additional observations from a re-analysis of the deposited data

Results flagged for a closer look

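The following values went opposite ways in the 2 pairs, and the difference between the pairs was not tested. The mean A tract of all tails differed by -0.55 nt in urt1 minus WT and by 0.54 nt in urt1 xrn4 minus xrn4. The uridylated share of SHM4 differed by 7.9 percentage points in urt1 minus WT and by -21.4 in urt1 xrn4 minus xrn4, and that of LAP2 by 2.8 and -37.5. The mean A tract of LAP2 differed by -2.36 nt in urt1 minus WT and by 2.87 nt in urt1 xrn4 minus xrn4, and that of emb2386 by 1.09 and -1.73 nt. The log2 ratio of the share of reads of EBF1 was -1.80 in urt1 over WT and 2.11 in urt1 xrn4 over xrn4, where xrn4 had 3 reads, and that of AT3G17120, an uncharacterized protein, was -1.43 and 1.06.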

How the results depend on the processing

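No paired analysis was possible because each genotype has 1 library. Lanes, the extra minimum of 100 reads and the alternatives for named genes and the second pair were chosen after the data were examined. The difference in uridylated share (-24.8 points) kept its direction throughout: it was -18.0 with identical reads counted once, -22.7 with U alone, -26.5 for 25 A or fewer, -15.7 with genes weighted equally and -26.5 without the 10 genes with the most reads; standardised to A lengths of urt1 it was -26.3. With identical reads once, the differences were -3.58 for 1 U, -14.4 for 2 or more U, 33.0 for 1 U among uridylated tails (36.6 with every read, 39.4 with U alone) and -14.5 for the second pair. Mean A tract differed by -1.78 nt over unmodified tails and -1.09 with extensions. Uridylation was at least 2-fold lower for 38 of 58 genes, for 9 of 16 with 50 tails and for 86 of 143 with 10. With identical reads once it was so for 3 of 23, and in lanes 1 and 2 for 16 of 22 and 16 of 25. A tracts were at least 1 nt shorter for 26 of 58 genes and for 7 of 16 with 50 tails. They were so for 12 of 23 with identical reads once, and for 10 of 22 and 14 of 25 in lanes 1 and 2. Fewer genes were tested in all but the lower minimum. Genes with a higher and lower share of reads numbered 238 and 15 of 440 with TMM, 42 and 6 of 152 with 50 reads, and 16 and 1 of 65 with 100. They numbered 20 and 24 of 196 with identical reads once, 46 and 13 in lane 1, and 52 and 22 in lane 2. With no minimum they numbered 1344 and 1807 of 6482. That lower count includes by arithmetic all 993 genes read in WT alone, 608 of them with 1 read, because WT is the shallower library. It is therefore no measure of direction. Of all alternatives for the overall values and counts, 36 moved and 24 stayed. Of those for named genes, 198 stayed within the counting interval, 20 moved beyond it and 2 turned. For emb2386 the mean A tract turned to -1.27 nt over unmodified tails, and for ARFA1E the read ratio turned to -0.16 with identical reads once; the cause was not tested. Depth limits WT, where 10304 reads leave 58 genes with 20 tails.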
